A study of Mus musculus with 10 samples.

Results

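The immediate early genes Klf2, Klf6, Nr4a1, Nr4a2, Nr4a3, Egr1, Egr2, Egr3 and Ier2 were examined in peak lists from ATAC-seq, an assay that marks open chromatin by where the Tn5 transposase can cut. Peaks of 8 libraries were merged into regions wherever they shared at least 1 bp. A region was assigned to 1 of the 9 genes if its midpoint lay in that gene, or if that gene was the nearest protein-coding gene within 100 kb. This gave 74 of the 103446 regions of the genome-wide set, of which 28 have their midpoint inside a gene and 46 outside. All coordinates are on the mouse build mm10, counted from 1.

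The libraries were made from haematopoietic stem and progenitor cells (HSPCs), here lineage negative bone marrow cells of C57BL/6 mice, with 2 libraries for each of 4 genotypes. The genotypes are wild type (WT), Npm1flox-cA/+;Mx1-Cre+ (Npm1c), Flt3ITD/+ (Flt3-ITD) and the double mutant with both alleles, Npm1flox-cA/+;Flt3ITD/+;Mx1-Cre+ (DM). Npm1flox-cA is a conditional allele of the nucleophosmin gene whose mutant product lies in the cytoplasm, and Flt3-ITD is an internal tandem duplication that keeps the FLT3 receptor kinase active. The Mx1-Cre transgene is an interferon-inducible recombinase that is not restricted to HSPCs, and the labels name it only in the 2 genotypes with the Npm1c allele, so the Cre and the mutation cannot be told apart. The labels give no ages, number of animals per library or pooling. The 2 libraries of a genotype are described as biological replicates, so p-values measure the spread between these libraries.

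Immediate early genes are switched on within minutes of a signal, without new protein synthesis, by factors already present in the cell. Serum response factor binds the CArG box and CREB binds the cyclic AMP response element (CRE) in many of their promoters, and the RAS-MAPK pathway downstream of receptor kinases such as FLT3 acts on both. The Nr4a genes code for orphan nuclear receptors, the Egr and Klf genes for zinc finger transcription factors, and Nr4a1 and Nr4a3 are known as tumour suppressors in myeloid leukaemia.

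The promoters of members whose start regions passed a width test in the results below are printed first, where the promoter table holds them, with the sites of these factors. Each sequence is the 250 bases before the RefSeq transcription start (GRCm38.p6), 5′ to 3′ along the gene. Capitals mark CRE half-sites (TGACG, or CGTCA on the opposite strand) and the CArG box. The windows are chr15:101266596-101266845 (plus strand) for Nr4a1, chr8:72318812-72319061 (plus) for Klf2, chr2:57124004-57124253 (minus) for Nr4a2, chr10:67537619-67537868 (plus) for Egr2 and chr13:5861239-5861488 (plus) for Klf6. For Egr2, 1 of several windows of the promoter table is printed. Its window chr10:67535249-67535498 holds neither kind of site, and chr10:67537316-67537565 holds a CArG box and no CRE half-site.
Nr4a1: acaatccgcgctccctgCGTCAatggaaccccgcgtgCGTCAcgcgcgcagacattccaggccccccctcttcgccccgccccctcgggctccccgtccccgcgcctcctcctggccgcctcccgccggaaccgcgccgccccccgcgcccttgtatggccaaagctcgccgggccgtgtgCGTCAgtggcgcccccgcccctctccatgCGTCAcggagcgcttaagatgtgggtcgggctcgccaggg
Klf2: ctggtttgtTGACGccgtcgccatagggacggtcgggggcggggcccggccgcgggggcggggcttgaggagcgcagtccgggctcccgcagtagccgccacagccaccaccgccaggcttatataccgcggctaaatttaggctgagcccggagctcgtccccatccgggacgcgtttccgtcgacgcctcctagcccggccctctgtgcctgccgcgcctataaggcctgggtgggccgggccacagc
Nr4a2: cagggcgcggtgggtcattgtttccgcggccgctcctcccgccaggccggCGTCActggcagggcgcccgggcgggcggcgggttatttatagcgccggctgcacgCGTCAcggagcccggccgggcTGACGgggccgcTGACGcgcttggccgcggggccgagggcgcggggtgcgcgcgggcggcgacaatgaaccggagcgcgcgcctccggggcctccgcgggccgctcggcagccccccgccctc
Egr2: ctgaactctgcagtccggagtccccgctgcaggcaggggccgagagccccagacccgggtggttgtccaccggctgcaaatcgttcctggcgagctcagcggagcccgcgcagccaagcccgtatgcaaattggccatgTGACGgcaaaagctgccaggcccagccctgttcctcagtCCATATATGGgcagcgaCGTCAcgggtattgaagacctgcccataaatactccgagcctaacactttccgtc
Klf6: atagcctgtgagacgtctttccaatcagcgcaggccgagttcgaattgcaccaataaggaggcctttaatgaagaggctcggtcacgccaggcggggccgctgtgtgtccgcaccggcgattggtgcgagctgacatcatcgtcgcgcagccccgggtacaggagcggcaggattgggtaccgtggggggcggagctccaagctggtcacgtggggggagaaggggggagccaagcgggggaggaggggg

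The promoter table held 10 windows for 6 of the 9 genes, and Egr1, Egr3 and Ier2 had no entry. A CRE half-site was present in 7 of the 10 windows, in those of Nr4a1, Nr4a2, Nr4a3, Klf2 and Egr2, against 17.8% of all 32851 windows of the table. Several windows of Egr2 overlap and share the same half-sites, so the 7 are not 7 separate promoters. Nr4a1, Nr4a2 and Nr4a3 each held 4 half-sites and Klf2 held 1. The full CRE, TGACGTCA, was in 0 of the 10 windows and in 1.55% of all windows. The CArG box was in 4 of the 10, all of them overlapping or neighbouring windows of Egr2, against 1.47% of all windows. The EGR motif GCGNGGGCG was in the windows of Klf2, Nr4a1 and Nr4a2, against 4.7% of all, and the KLF motif CACCC in 5 windows, against 52%. AP-1 (TGANTCA, 6.75% of all windows) and NR4A (AAAGGTCA, 1.34%) motifs were in 0 of the 10, and TATAAA (12.4%) was in that of Nr4a2. Motifs were searched on both strands, CRE half-sites also lie within a full CRE, and a match describes letters only.

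The lists held between 43825 peaks in Flt3-ITD replicate 1 and 80916 for WT replicate 1, and covered between 24.2 and 50.2 Mb. Both Flt3-ITD libraries and both DM libraries covered less than each of the 4 libraries without the Flt3-ITD allele. The lists give positions only, with no peak height, and no read depth. A shorter list, a missing peak or a narrower peak can therefore accompany fewer reads, and in bulk cells a smaller share of a cell type cannot be told apart from less open chromatin per cell. Of the HSPC markers Kit, Cd34, Gata2, Meis1, Myb and Ly6a, 5 of 6 had a peak within 1 kb in every library, and Ly6a had none. Among markers of other cells, 1 to 3 of 4 T cell, 3 of 4 erythroid, 0 to 4 of 5 neutrophil, 3 of 3 macrophage, 2 or 3 of 3 endothelial and 3 of 3 platelet genes had one. Cd3g, Hba-a1 and Ngp had none in any library.

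Members were called, meaning that a library had a peak in the region, in 52 and 37 of 74 regions for WT, 41 and 46 for Npm1c, 33 and 36 for Flt3-ITD, and 44 and 50 for DM. As shares these were 70.3% and 50%, 55.4% and 62.2%, 44.6% and 48.6%, and 59.5% and 67.6%. Over all regions the shares were 75.4% and 58.2%, 57% and 63.1%, 38.7% and 46%, and 50.4% and 58%. Member shares lay below those of all regions in WT and above them in Flt3-ITD replicate 1 and DM. In Npm1c and Flt3-ITD replicate 2 they were close to those of all regions. None of these differences was tested. The Flt3-ITD libraries had the fewest member calls, as they did over the genome. All 8 libraries shared 23 member regions (31.1%, against 25.3% of all regions), while 17 (23%, against 18.5%) were called in 1 library. Klf6 had 17 regions, Nr4a1 14, Nr4a3 11, Klf2 10, Nr4a2, Egr1 and Egr2 5 each, Egr3 4 and Ier2 3. The heat map of all regions shows this by gene and library.

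**Figure D1:**
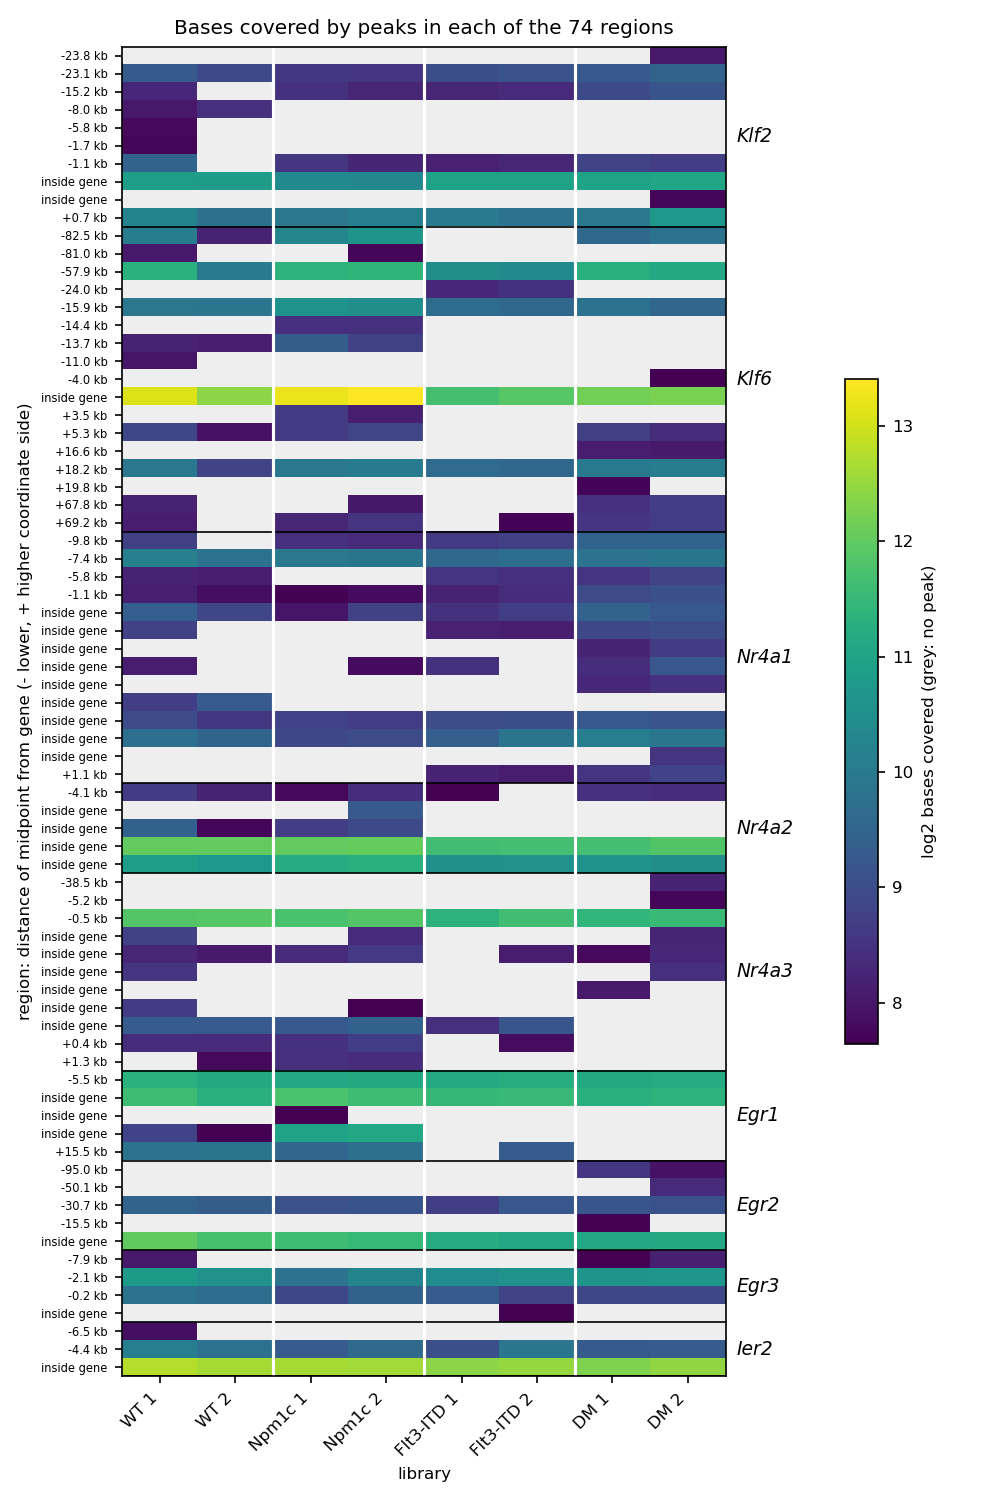
Each row is 1 of the 74 regions, grouped by gene and labelled with the distance of its midpoint from the gene, and each column is 1 library. Colour gives the log2 bases covered by peaks and grey means no peak. The gene domains of Klf6 and Ier2 are the widest, and the Nr4a1 rows hold most calls in the 2 DM libraries.

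A region is called gained in 1 genotype against another when both libraries of the first and neither library of the second had a peak, and lost in the opposite case. For 2 libraries against 2 the smallest exact two-sided p is 0.333, so these are counts without a test. In Npm1c against WT, 2 members were gained, against 2.71% of all regions, and 3 were lost, against 6.26%. In Flt3-ITD against WT, 2 were gained (0.852% of all regions) and 7 lost (16.2%). In DM against WT, 5 were gained (6.93%) and 8 lost (20.9%). As shares of the 74 members, the gains were 2.7%, 2.7% and 6.76% and the losses 4.05%, 9.46% and 10.8% in these comparisons. The shares gained in Npm1c and DM lay at the background, that gained in Flt3-ITD rested on 2 regions, and the shares lost lay below it in all 3.

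DM was also set against each single mutant, with the same DM libraries in both. Against Npm1c, 8 members were gained (10.8%, against 12.6% of all regions) and 9 lost (12.2%, against 19.3%). Against Flt3-ITD, 8 were gained (10.8%, against 10.6%) and 2 lost (2.7%, against 3.44%). Of the 8 regions gained against Npm1c, 5 belonged to Nr4a1. Of the 9 lost, 3 belonged to Klf6, 3 to Nr4a3, 2 to Egr1 and 1 to Nr4a2. Leaving out DM replicate 1 raised the gains to 16 against Npm1c and 17 against Flt3-ITD, since DM replicate 2 alone then decides.

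Across the 4 libraries with the Flt3-ITD allele (Flt3-ITD and DM) and the 4 without it (WT and Npm1c), 1 member region was called in all with and none without, against 0.566% of all regions. The reverse held for 3, against 8.38%. The region with calls only where the allele is present lies 1080 bp beyond Nr4a1, and the 3 regions without calls there belong to Klf6, Nr4a2 and Egr1. Each of these 4 had a two-sided Fisher exact p of 0.0286, the smallest that 4 against 4 libraries allow, and 0.32 after Benjamini-Hochberg adjustment over all 103446 regions. For the Npm1c allele, 0 members were called in all libraries with it and none without, against 0.156% of all regions, and 0 showed the reverse, against 0.204%. At an unadjusted p under 0.05, the Fisher exact test had 4 members for the Flt3-ITD allele (5.41%, against 8.94% of all regions) and 0 for the Npm1c allele (against 0.36%).

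Width, here the bases covered by peaks within a region, was compared with limma on log2 values over the 26169 regions called in all 8 libraries, 23 of them members. Each library was centred on its median width, so a difference is relative to the typical region. Without centring, the median difference of all regions was -0.08 for Npm1c, -0.34 for Flt3-ITD and -0.27 for DM against WT, -0.14 for DM against Npm1c, 0.08 for DM against Flt3-ITD, -0.25 for the Flt3-ITD allele, -0.01 for the Npm1c allele and 0.20 for the interaction, on the log2 scale. A member is called wider or narrower at an adjusted p under 0.05, with Benjamini-Hochberg adjustment over all 26169 regions.

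For Npm1c against WT, 3 of 23 members were wider (6.9% of all regions) and 0 narrower (5.01%). For Flt3-ITD against WT, 5 were wider (5.41%) and 0 narrower (4.25%). For DM against WT, 6 were wider (21.5%) and 1 narrower (16.5%). The median member difference was 0.12, 0.23 and 0.22 on the log2 scale in these comparisons, against 0.12, 0.12 and 0.05 over all tested regions. Without centring, limma called 1 wider and 1 narrower, 0 and 3, and 1 and 3 members, in the same order. With centring, the count for Flt3-ITD against WT was 0 without WT replicate 2 and 0 without Flt3-ITD replicate 1, that for Npm1c against WT was 0 without Npm1c replicate 1 and 1 without Npm1c replicate 2, and that for DM against WT was 4 without DM replicate 2. The share of wider regions among all calls fell with that setting from 57.9% to 17.4%, from 56.1% to 0.321% and from 56.5% to 9.55%, and was 43.5%, 42.5% and 54.5% after quantile normalization.

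For DM against Npm1c, 7 members were wider (20.5% of all regions) and 3 narrower (24.3%). For DM against Flt3-ITD, 1 was wider (4.26%) and 0 narrower (7.64%), and the count was 0 without DM replicate 1, DM replicate 2 or Flt3-ITD replicate 2. The mean effect of the Flt3-ITD allele gave 8 wider (25.7%) and 2 narrower (21.2%), that of the Npm1c allele 3 wider (9.66%) and 0 narrower (8.89%), and the interaction of the alleles 1 with a positive term (2.56%) and 3 with a negative term (7.17%). The median member difference was 0.07, 0.01, 0.10, 0.02 and -0.08, against -0.01, -0.06, 0.05, 0.02 and -0.13 over all regions. Without centring the member calls were 7 wider and 4 narrower, 1 and 0, 5 and 8, 0 and 0, and 0 and 0. The share of wider regions among all calls was 45.9%, 35.8%, 54.8%, 52.1% and 26.3% with centring, 27.1%, 48.2%, 12.7%, 32.4% and 71.7% without it, and 51.9%, 44.6%, 54.4%, 49.5% and 44.1% after quantile normalization. After quantile normalization the member calls were 8 wider and 2 narrower for DM against Npm1c and 8 and 1 for the Flt3-ITD allele. The member calls of DM against Npm1c thus lay mostly above zero under all 3 settings, and those of the Flt3-ITD allele did so with centring and quantile normalization but not without scaling.

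**Figure D2:**
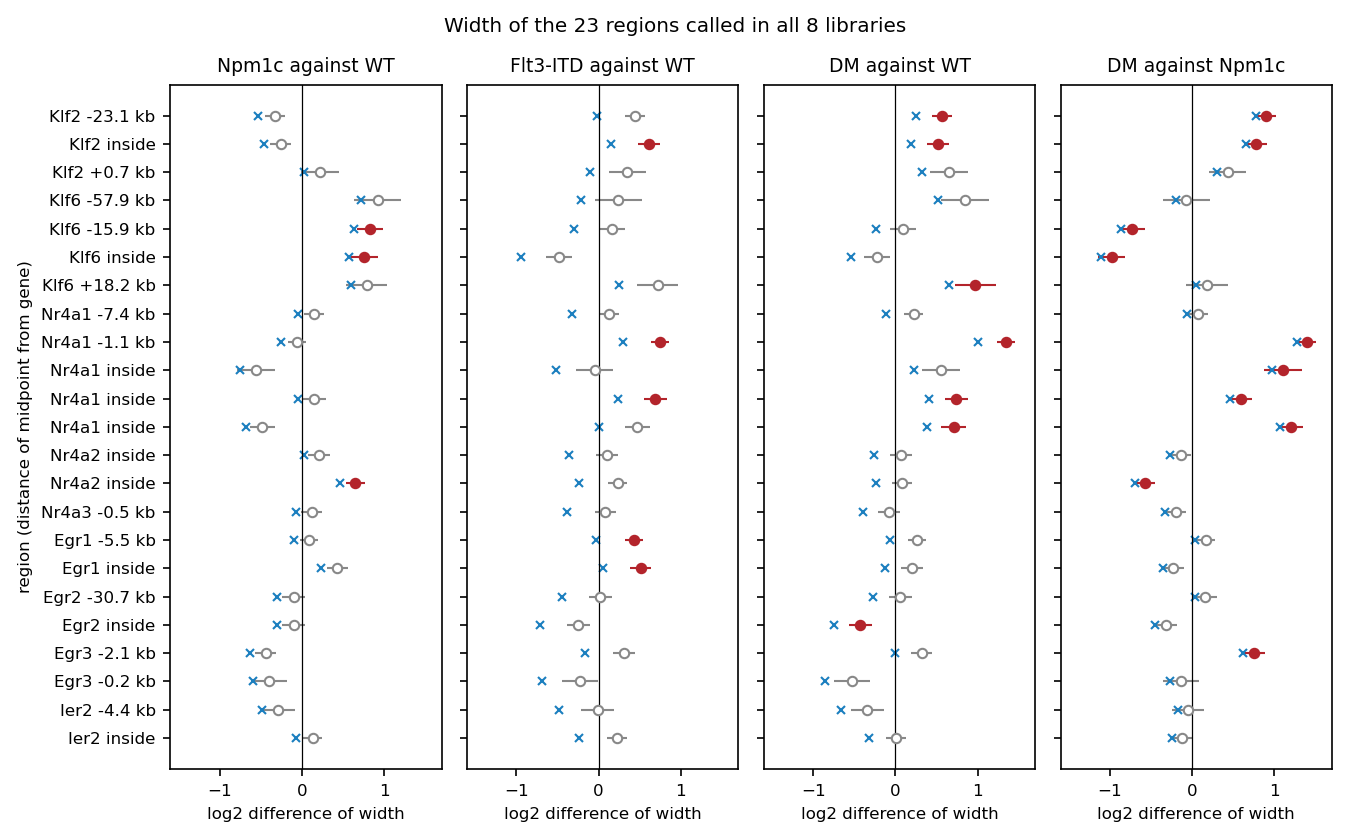
Each row is 1 of the 23 members called in all 8 libraries, and the x axis is the log2 difference of width in 4 comparisons. Circles with bars are the centred estimate and its standard error, filled red where the adjusted p is under 0.05, and blue crosses are the estimate without centring. The Klf2 rows and most Nr4a1 rows lie to the right for DM against Npm1c, and the Klf6 gene domain lies to the left. The Nr4a1 row 7351 bp before the gene is at 0.07.

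Nr4a1, which codes for the orphan receptor NUR77, had more of its regions called in DM than in any other genotype. Its gene spans chr15:101253902-101274795. The start in the promoter table lies at chr15:101266846, so the first part of the span lies before that start. Of its 14 regions, 12 and 13 were called in DM, against 10 and 7 for WT, 6 and 7 for Npm1c, and 10 and 9 for Flt3-ITD. Of all regions, 50.4% and 58% were called in DM, 75.4% and 58.2% in WT, 57% and 63.1% in Npm1c and 38.7% and 46% in Flt3-ITD. The region over the transcription start, chr15:101266036-101267257, which holds the promoter printed above, covered 857 and 722 bp in WT, 474 and 508 bp in Npm1c, 666 and 937 bp in Flt3-ITD and 1107 and 954 bp in DM. Npm1c was lowest and the DM libraries were above both WT libraries. The start region was wider in DM than in Npm1c by 1.20 ± 0.15 (SE) on the log2 scale, a 2.29-fold difference with an adjusted p of 0.000513 by limma. Against WT it was wider by 0.71 ± 0.15 (adjusted p = 0.00736 by limma), a call that was lost without centring (0.39, adjusted p = 0.141).

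The region with the largest width difference among the members of DM against WT, chr15:101252547-101253077, lies 1090 bp before the lower-coordinate end of Nr4a1. It covered 285 and 232 bp in WT, 205 and 225 bp in Npm1c, 297 and 333 bp in Flt3-ITD and 507 and 531 bp in DM. The DM values stood above all other libraries and the groups did not overlap. It was wider in DM than in WT by 1.34 ± 0.11 on the log2 scale (2.53-fold, adjusted p = 0.000325), than in Npm1c by 1.40 ± 0.11 (2.64-fold, adjusted p = 0.000105) and than in Flt3-ITD by 0.59 ± 0.11 (1.5-fold, adjusted p = 0.013), all by limma. In Flt3-ITD against WT the difference was 0.75 ± 0.11 (adjusted p = 0.012 by limma), and 0.29 with an adjusted p of 0.141 without centring. The Npm1c allele had a mean effect of 0.26 ± 0.08 (adjusted p = 0.0477 by limma), and 0.23 with an adjusted p of 0.17 without centring.

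Some other regions of Nr4a1 differed in the same direction. The region chr15:101262418-101263018 lies inside the gene span and before the start in the promoter table. It covered 509 and 384 bp in WT, 446 and 410 bp in Npm1c, 514 and 524 bp in Flt3-ITD and 601 and 575 bp in DM. Every library with the Flt3-ITD allele lay above every library without it, with a mean effect of 0.64 ± 0.10 on the log2 scale (adjusted p = 0.0012 by limma). The region chr15:101253761-101254484 covered 664 and 466 bp in WT, 250 and 436 bp in Npm1c, 359 and 422 bp in Flt3-ITD and 702 and 599 bp in DM. It was wider in DM than in Npm1c by 1.10 ± 0.23 (adjusted p = 0.00538 by limma), with WT values close to those of DM. The region chr15:101245982-101247121, 7351 bp before the gene, passed no width test. It covered 1140 and 882 bp in WT, 989 and 949 bp in Npm1c, 754 and 841 bp in Flt3-ITD and 915 and 946 bp in DM.

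Nr4a1 also held gained and lost regions. Peaks at chr15:101256822-101257220 (292 and 399 bp) and chr15:101259013-101259389 (316 and 351 bp) were listed in the 2 DM libraries and in no other. Both lie inside the gene span and before the start in the promoter table. The region beyond the gene, chr15:101275651-101276100, was listed in both Flt3-ITD libraries (292 and 272 bp) and both DM libraries (369 and 450 bp), and in none without the Flt3-ITD allele. In contrast, chr15:101261039-101261664 was listed in both WT libraries (417 and 626 bp) and in no mutant library. The region chr15:101247915-101248367 lacked a peak in both Npm1c libraries and had 281 to 453 bp in the other 6, and chr15:101256004-101256531 was absent from both Npm1c libraries and WT replicate 2.

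**Figure D3:**
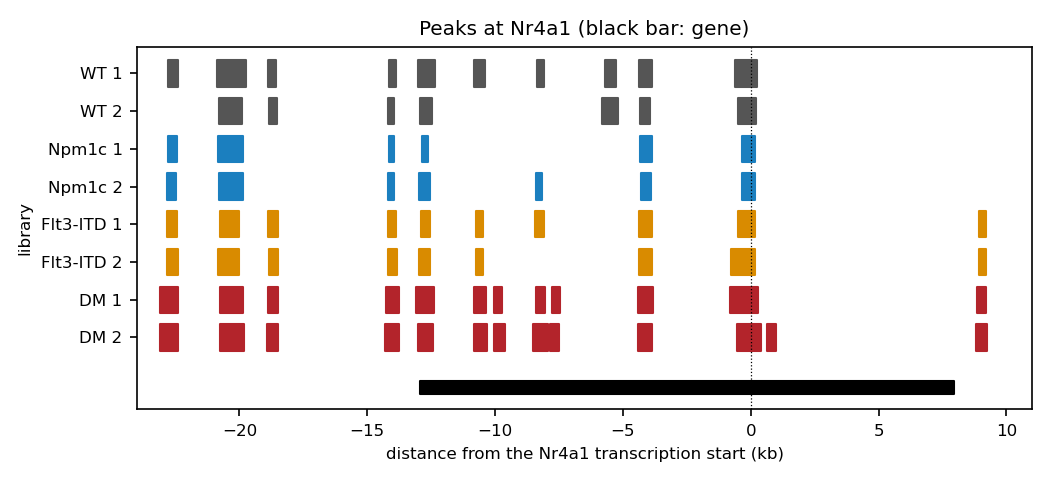
Peaks at Nr4a1 in each library, drawn to scale by distance from the transcription start in kb, with the gene as a black bar. The DM libraries hold 2 peaks inside the gene span and before the transcription start that no other library has. The peak beyond the gene appears in the 4 libraries with the Flt3-ITD allele.

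Klf2, a zinc finger factor of endothelial cells and quiescent lymphocytes, covered the fewest bases at its start in Npm1c and was wider there with the Flt3-ITD allele. The start region chr8:72318499-72320611, which holds the Klf2 promoter above, covered 1845 and 1778 bp in WT, 1353 and 1282 bp in Npm1c, 2020 and 1992 bp in Flt3-ITD and 2031 and 2113 bp in DM. All 4 libraries with the allele were above all 4 without it, although their lists were shorter overall. The mean effect of the Flt3-ITD allele was 0.70 ± 0.09 on the log2 scale (1.62-fold, adjusted p = 0.000751), and 0.40 with an adjusted p of 0.00397 without centring, both by limma. DM exceeded Npm1c by 0.78 ± 0.13 (adjusted p = 0.00206 by limma). The difference of Npm1c from WT was -0.26 (adjusted p = 0.203 by limma), and -0.46 with an adjusted p of 0.043 without centring.

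A region 23118 bp before Klf2, chr8:72295590-72296298, covered 618 and 491 bp in WT, 384 and 379 bp in Npm1c, 525 and 559 bp in Flt3-ITD and 602 and 709 bp in DM. The Npm1c values were the lowest of the 8. This region was wider in DM than in Npm1c by 0.90 ± 0.12 on the log2 scale (1.87-fold, adjusted p = 0.000762 by limma) and than in WT by 0.57 ± 0.12 (adjusted p = 0.00828 by limma), the latter falling to 0.25 with an adjusted p of 0.211 without centring. For Flt3-ITD against WT, the Klf2 start was wider by 0.61 ± 0.13 (adjusted p = 0.032 by limma), and by 0.15 with an adjusted p of 0.264 without centring. Klf2 lost 1 region in every mutant against WT, chr8:72310916-72311287, listed with 261 and 346 bp in the WT libraries and in no other.

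Egr3, an inducible zinc finger factor of lymphocytes and neurons, had its widest region 2080 bp before the gene at chr14:70074339-70076135. It covered 1753 and 1515 bp in WT, 915 and 1206 bp in Npm1c, 1398 and 1531 bp in Flt3-ITD and 1571 and 1668 bp in DM. Npm1c was lowest, and WT overlapped both Flt3-ITD and DM. It was wider in DM than in Npm1c by 0.75 ± 0.13 on the log2 scale (1.68-fold, adjusted p = 0.00258 by limma). The region over the lower-coordinate end of Egr3, chr14:70076640-70077554, went the other way. It covered 895 and 832 bp in WT, 476 and 686 bp in Npm1c, 629 and 455 bp in Flt3-ITD and 472 and 479 bp in DM. Its DM against WT difference was -0.53 (adjusted p = 0.0922 by limma), and -0.86 with an adjusted p of 0.0227 without centring. A small region at chr14:70069294-70069577 was listed in WT replicate 1 (262 bp) and in both DM libraries (200 and 284 bp), so it was gained in DM against Npm1c and against Flt3-ITD.

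Klf6, a zinc finger factor induced by many stimuli, showed another pattern, with its longest coverage in Npm1c. A domain at chr13:5860432-5871286 spans the whole gene and covered 8824 and 5425 bp in WT, 9657 and 10852 bp in Npm1c, 3360 and 3858 bp in Flt3-ITD and 4646 and 4843 bp in DM. In Npm1c its ranks among all regions by covered bases were 3 and 2, and in Flt3-ITD 101 and 88. The Npm1c libraries were highest, the WT libraries stood far apart, and all libraries with the Flt3-ITD allele lay below all without it. The median width of all regions called in all 8 libraries was also lower with the allele, at 561 to 675 bp against 701 to 894 bp. Peaks covered 88.4% and 100% of the gene in Npm1c, 79.5% and 46.1% for WT, 25.5% and 30% for Flt3-ITD, and 38.1% and 44.1% for DM.

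The difference of DM from Npm1c in this domain was -0.98 ± 0.16 on the log2 scale (0.507-fold, adjusted p = 0.00171 by limma). The mean effect of the Flt3-ITD allele on it was -0.73 ± 0.11 (0.603-fold, adjusted p = 0.00135), and -1.03 with an adjusted p of 0.00274 without centring, both by limma. In Npm1c against WT it was wider by 0.76 ± 0.16 (1.7-fold, adjusted p = 0.0216 by limma). That call was lost without centring (0.57, adjusted p = 0.183), after quantile normalization (adjusted p = 0.0679), without WT replicate 2 (adjusted p = 0.0597), without Npm1c replicate 1 (0.0708) and without Npm1c replicate 2 (0.0967). A region 15938 bp before the gene, chr13:5844716-5846387, covered 979 and 954 bp in WT, 1544 and 1450 bp in Npm1c, 816 and 758 bp in Flt3-ITD and 901 and 752 bp in DM, and was wider in Npm1c than in WT by 0.83 ± 0.16 (adjusted p = 0.0186 by limma). Both Npm1c libraries were above all others there. That call was lost without Npm1c replicate 1 (adjusted p = 0.0927), without Npm1c replicate 2 (0.0591) and without WT replicate 1 (0.0694). Without centring, the mean effect of the Flt3-ITD allele on this region was -0.58 (adjusted p = 0.00244 by limma), against -0.28 (0.074) with it.

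Small regions around Klf6 followed single genotypes. Peaks at chr13:5846897-5847259 (340 and 348 bp) and chr13:5873646-5874051 (406 and 279 bp) were listed in the Npm1c libraries alone, a peak at chr13:5837323-5837685 (313 and 359 bp) in the Flt3-ITD libraries alone, and one at chr13:5886881-5887153 (272 and 265 bp) in the DM libraries alone. The region chr13:5847452-5848130 covered 295 and 279 bp in WT and 654 and 438 bp in Npm1c, and had no peak in any library with the Flt3-ITD allele. Another pair of regions was absent from Flt3-ITD and present in DM. One of them, chr13:5778219-5779845 at 82457 bp before the gene, covered 1066 and 291 bp in WT, 1234 and 1586 bp in Npm1c, 0 and 0 bp in Flt3-ITD and 775 and 893 bp in DM. The other, chr13:5875419-5875915, covered 474 and 242 bp in WT, 394 and 459 bp in Npm1c, 0 and 0 bp in Flt3-ITD and 423 and 333 bp in DM.

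Another pair of Klf6 regions outside the gene was called in every library. The region chr13:5802177-5805036, 57883 bp before the gene, covered 2548 and 1039 bp in WT, 2643 and 2725 bp in Npm1c, 1446 and 1345 bp in Flt3-ITD and 2479 and 2211 bp in DM. It was wider with the Npm1c allele by 0.77 ± 0.21 on the log2 scale (adjusted p = 0.038 by limma), and by 0.73 with an adjusted p of 0.123 without centring. WT replicate 2 was the lowest library. The region chr13:5888057-5889138 covered 972 and 453 bp in WT, 967 and 1041 bp in Npm1c, 813 and 770 bp in Flt3-ITD and 1003 and 1078 bp in DM, and was wider in DM than in WT by 0.97 ± 0.25 (adjusted p = 0.016 by limma), and by 0.65 with an adjusted p of 0.143 without centring.

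**Figure D4:**
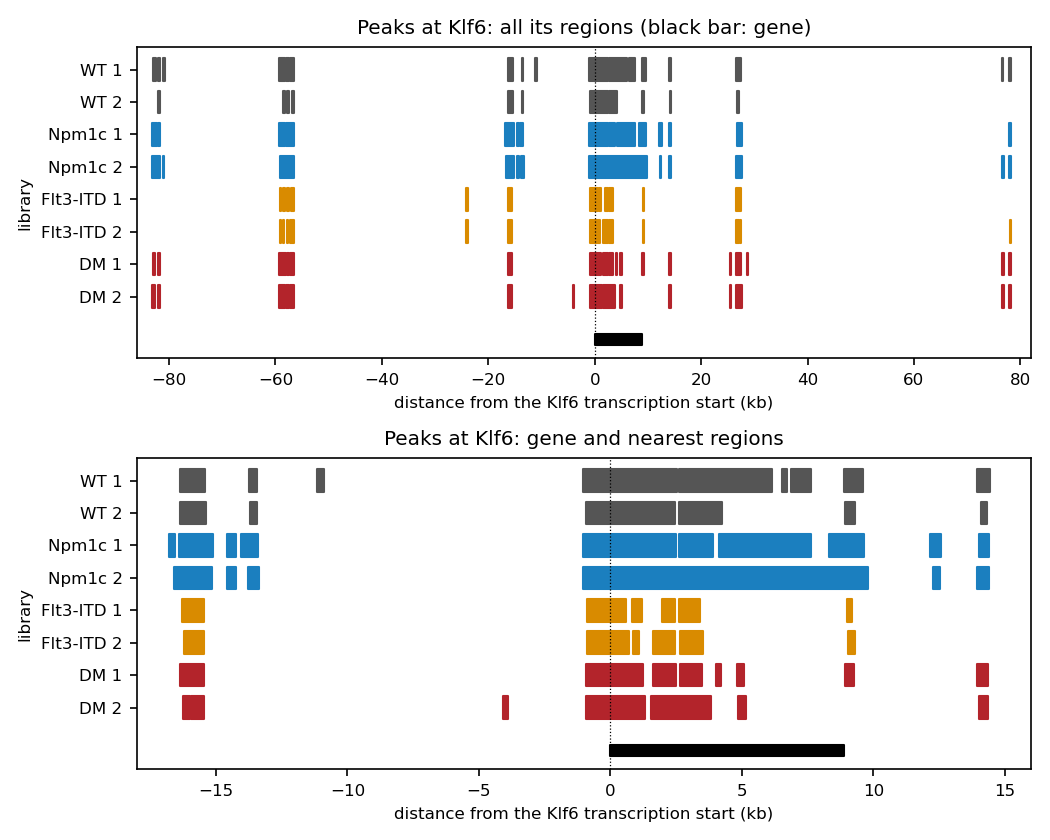
Peaks at Klf6 in each library, drawn to scale by distance from the transcription start in kb, for all its regions (top) and near the gene (bottom), with the gene as a black bar. The Npm1c libraries cover most of the gene, and the 4 libraries with the Flt3-ITD allele cover its first part and scattered short stretches.

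Egr1, the best known immediate early zinc finger factor, was open over its start side in every library and over its other end in 4. The region chr18:34859302-34863165, which holds the lower-coordinate end of the gene, covered 3146 and 2506 bp in WT, 3480 and 3117 bp in Npm1c, 2840 and 2962 bp in Flt3-ITD and 2509 and 2638 bp in DM. The groups overlapped in bases, and only after centring was it wider in Flt3-ITD than in WT, by 0.51 ± 0.13 on the log2 scale (adjusted p = 0.0438 by limma; 0.05 with an adjusted p of 0.802 without centring). The region chr18:34863640-34865979 lies across the higher-coordinate end and covered 445 and 203 bp in WT, 2040 and 2203 bp in Npm1c and 0 bp in all 4 libraries with the Flt3-ITD allele. Peaks covered 86% and 70.6% of the gene in Npm1c and between 24.9% and 34.9% in the other 6 libraries.

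A region 5526 bp before Egr1, chr18:34854372-34856991, covered 2197 to 2561 bp in the 8 libraries. It was wider in Flt3-ITD than in WT by 0.43 ± 0.11 on the log2 scale (adjusted p = 0.0484 by limma) only relative to the median region, and the difference was -0.03 without centring. A region 15479 bp beyond the gene, chr18:34879967-34880903, was listed in both WT libraries (893 and 937 bp), both Npm1c libraries (745 and 869 bp) and Flt3-ITD replicate 2 (643 bp), and in no DM library.

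Heat shock genes, which code for chaperones of protein folding, also had more covered bases in Npm1c. The 10 heat shock genes summed to 773 and 890 bp per Mb covered for WT, 1670 and 1229 for Npm1c, 808 and 895 for Flt3-ITD and 631 and 592 for DM. Of their 74 regions, 17 (23%, against 2.71% of all regions) were gained in Npm1c against WT, among them 5 of Hsph1 and 4 of Dnajb4. In that comparison 5 (6.76%, against 6.26%) were lost, 3 of Hspa1b and 2 of Bag3. In DM against Npm1c, 28 (37.8%, against 19.3%) regions of the heat shock genes were lost. Their part in the Klf6 and Egr1 values was not tested.

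Nr4a2, which codes for NURR1, and Nr4a3, which codes for NOR1, are orphan receptors related to Nr4a1. The Nr4a2 start region chr2:57122550-57125023, which holds the Nr4a2 promoter above, covered 1851 and 1682 bp in WT, 2371 and 2474 bp in Npm1c, 1480 and 1518 bp in Flt3-ITD and 1552 and 1429 bp in DM. The Npm1c libraries were above all others. It was wider in Npm1c than in WT by 0.65 ± 0.12 on the log2 scale (1.57-fold, adjusted p = 0.0162 by limma; 0.46 with an adjusted p of 0.0543 without centring), and its DM against Npm1c difference was -0.57 (adjusted p = 0.00649 by limma). A region inside the gene, chr2:57111840-57112598, covered 691 and 211 bp in WT and 416 and 492 bp in Npm1c, and had no peak with the Flt3-ITD allele. The wide region chr2:57113823-57118042 covered 4130 to 4207 bp in the 4 libraries without the allele and 3186 to 3647 bp in the 4 with it. The mean effect of the Flt3-ITD allele on this Nr4a2 region was -0.02 (adjusted p = 0.86 by limma), and -0.32 with an adjusted p of 0.011 without centring.

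Nr4a3 had 2 of its 11 regions lost in DM against WT (20.9% of all regions) and 3 in DM against Npm1c (19.3% of all regions). These lay at its higher-coordinate side. Its start region chr4:48042502-48046570 covered 3732 and 3853 bp in WT, 3474 and 3732 bp in Npm1c, 2662 and 3187 bp in Flt3-ITD and 2770 and 2976 bp in DM. It passed no width test with centring, and without it the mean effect of the Flt3-ITD allele was -0.35 (adjusted p = 0.0155 by limma) and the DM against WT difference -0.40 (adjusted p = 0.0425 by limma). The region chr4:48076651-48077344 covered 640 and 634 bp in WT, 610 and 694 bp in Npm1c and 341 and 582 bp in Flt3-ITD, and had no peak in either DM library. The next one, chr4:48086646-48087070, covered 338 and 322 bp in WT, 354 and 417 bp in Npm1c and 0 and 227 bp in Flt3-ITD, and again had none in DM. Another, chr4:48087533-48087885, was listed in WT replicate 2 (217 bp) and both Npm1c libraries (348 and 330 bp) only.

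Egr2, a regulator of Schwann cell myelination, had a narrower gene region in DM than in WT. The region chr10:67535175-67539331, which holds the Egr2 starts of the promoter table and the Egr2 promoter above, covered 4079 and 3383 bp in WT, 3138 and 2898 bp in Npm1c, 2358 and 2184 bp in Flt3-ITD and 2172 and 2233 bp in DM. All 4 libraries with the Flt3-ITD allele lay below all 4 without it. The median width of all regions called in all 8 libraries did so too, at 561 to 675 bp with the allele and 701 to 894 bp without it. The difference of DM from WT was -0.43 ± 0.14 on the log2 scale (adjusted p = 0.0393 by limma), -0.75 with an adjusted p of 0.0064 without centring, and -0.37 with an adjusted p of 0.0506 after quantile normalization. A peak 95011 bp before the gene, chr10:67439270-67439646, was listed in the DM libraries alone (377 and 243 bp). The region chr10:67503406-67504117 was present in all 8 libraries with 418 to 712 bp.

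Ier2, a short gene for a nuclear regulator, lay within a domain in every library. The region chr8:84659050-84665957 covered 6908 and 6287 bp in WT, 6334 and 6250 bp in Npm1c, 5404 and 5757 bp in Flt3-ITD and 5008 and 5580 bp in DM. Peaks covered 100% of the gene in all 8 libraries, which Klf6 reached in 1 library and no other member did. The second region, chr8:84656386-84657535, covered 533 to 1120 bp, and neither passed a width test with centring. Without centring, the mean effect of the Flt3-ITD allele on the Ier2 domain was -0.25 (adjusted p = 0.038 by limma).

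Per length, the genes differed widely in how much of them peaks covered. Klf2 was covered at 50.4% and 48.4% for WT, 31.8% and 30.3% for Npm1c, 57.3% and 55.8% for Flt3-ITD and 57.3% and 73% for DM. Nr4a1 was covered at 14.7% and 10.5% for WT, 5.6% and 7.38% for Npm1c, 10.5% and 10.3% for Flt3-ITD and 17.7% and 20.5% for DM. Both were lowest in Npm1c and highest in DM. Egr2 was covered at 28.1% to 52.8%, Nr4a2 at 23.7% to 39.4%, Nr4a3 at 2.29% to 8.23% and Egr3 at 0% to 4.49%.

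The covered bases of all regions of a gene were then summed and divided by the Mb covered in the library, which gives every gene a scaled value per library. Nr4a1 had 106 and 90.3 bp per Mb for WT, 68.5 and 71.3 for Npm1c, 177 and 147 for Flt3-ITD and 223 and 220 for DM. The groups with and without the Flt3-ITD allele did not overlap, at 192 ± 36.5 (SD, n = 4) and 83.9 ± 17.4 bp per Mb (n = 4), a 2.29-fold difference. Klf2 had 159 ± 18.3 against 90.2 ± 12.2 bp per Mb (1.77-fold), Egr3 75.9 ± 5.33 against 49 ± 11.5 (1.55-fold) and Ier2 210 ± 30 against 171 ± 8.52 (1.23-fold). In each of these 4 genes the two-sided exact permutation test gave p = 0.0286, the smallest possible, and an adjusted p of 0.0878 over 16614 genes. Of all genes, 32.5% reached that unadjusted p, and 0 had an adjusted p under 0.05. In unscaled bases, the difference with the Flt3-ITD allele was 2039 bp for Nr4a1 (exact permutation p = 0.114), 762 bp for Klf2 (p = 0.371) and 87.5 bp for Egr3 (p over 0.05), and for Ier2 it reversed to -1236 bp (p = 0.0286).

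For the Npm1c allele, Klf6 had 410 ± 61.9 bp per Mb with it and 266 ± 45.4 without it (SD, n = 4 each), a 1.54-fold difference with an exact permutation p of 0.0286 and an adjusted p of 0.244. In single libraries Klf6 had 324 and 218 bp per Mb for WT, 459 and 463 for Npm1c, 279 and 245 for Flt3-ITD and 381 and 336 for DM, so the groups did not overlap. Unscaled, the difference was 5504 bp with an exact permutation p of 0.171. Of all genes, 11.7% reached the smallest unadjusted p in scaled values. The scaled values of Nr4a2, Nr4a3, Egr1 and Egr2 gave no exact permutation p under 0.05 for either allele. In scaled values Egr1 was nonetheless high in both single mutants, at 219 and 196 bp per Mb in Npm1c and 212 and 202 for Flt3-ITD, and lower in WT (140 and 148) and DM (159 and 146). In unscaled bases only Npm1c stood above WT. The Egr1 values were 8663 and 8460 bp for Npm1c, 7045 and 5898 bp for WT, 5136 and 6005 bp for Flt3-ITD and 4773 and 4956 bp for DM.

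**Figure D5:**
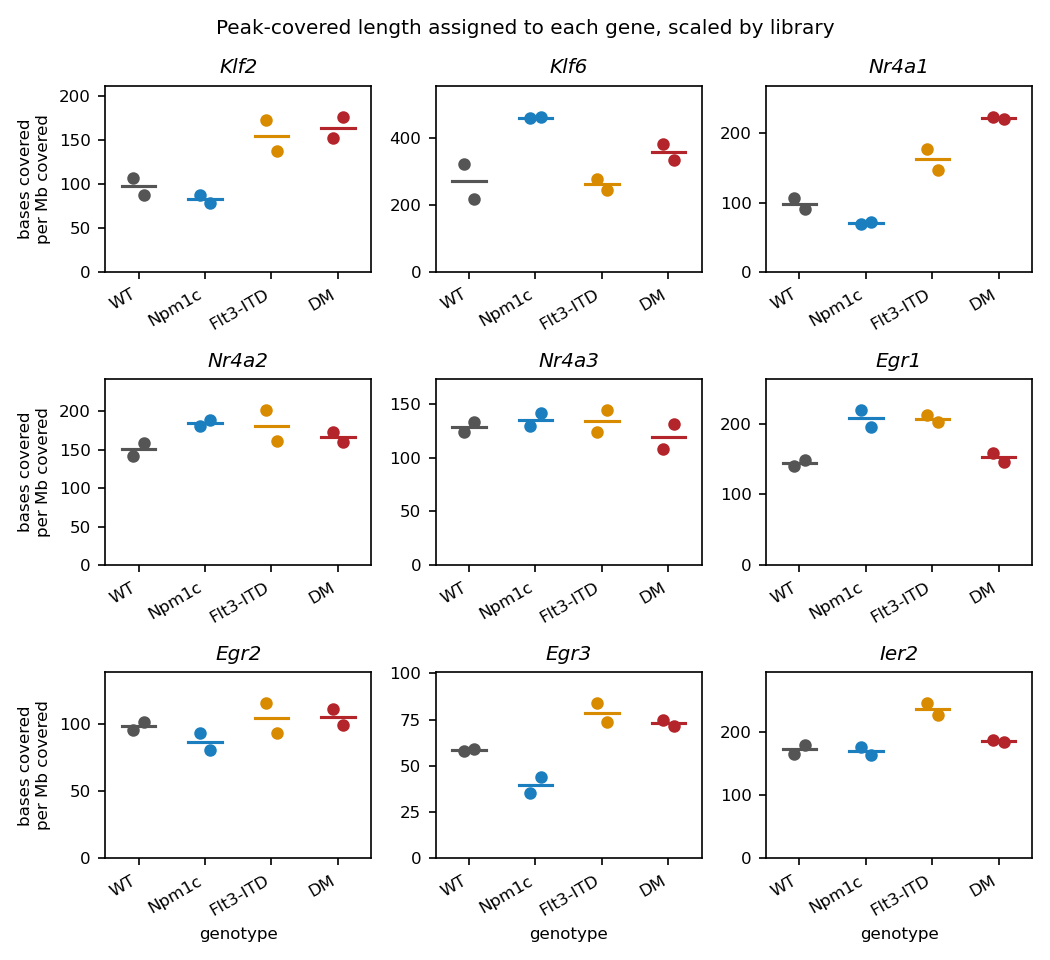
Points are the bases covered by peaks in all regions of a gene per Mb covered in the library, for 2 libraries of each genotype, and bars are their means. Nr4a1 is highest in DM at 223 and 220, Klf6 is highest in Npm1c at 459 and 463, and each y axis starts at 0.

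Across the 8 libraries, the scaled value of Nr4a1 went with that of Klf2 (Pearson r = 0.938) and Egr3 (r = 0.838) and not with that of Klf6 (r = -0.252). The 3 genes of the whole set most like Nr4a1 were Slc13a3 (r = 0.999), Chac1 (r = 0.997) and Acox3 (r = 0.997), and those most like Klf6 were Chd1 (r = 0.984), Tgfb2 (r = 0.980) and Wwc1 (r = 0.979). These are descriptions over 8 libraries that share genotypes and list lengths.

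The other immediate early genes, a list of 34 that includes Fos, Jun, Dusp, Zfp36 and Btg genes, had 431 regions, 138 of them called in all 8 libraries. For the Flt3-ITD allele limma called 67 of the 138 wider (25.7% of all regions) and 13 narrower (21.2%), with a median of 0.28 on the log2 scale against 0.05 for all regions. Without centring the calls were 21 wider and 38 narrower, and after quantile normalization 68 and 14. Zfp36l2, an RNA-binding regulator of mRNA decay, had most wider regions (9 of 14), followed by Fos, an AP-1 subunit (4 of 7), Mcl1, a survival factor of the BCL2 family (4 of 7), and Ier5 (4 of 14). Ier5 (3 of 14) and Dusp6, a phosphatase of ERK (3 of 4), had most narrower regions. In DM against Npm1c, 51 were wider (20.5% of all regions) and 14 narrower (24.3%), and without centring 27 and 19. In the same comparison, 76 of the 431 regions were gained (17.6%, against 12.6% of all regions) and 52 lost (12.1%, against 19.3%).

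The summed value of these 34 genes was 5742 and 5402 bp per Mb for WT, 5476 and 5261 for Npm1c, 8001 and 7099 for Flt3-ITD and 7368 and 7246 for DM, so all 4 libraries with the Flt3-ITD allele lay above those without it. Macrophage markers moved in the same direction, at 115 and 104 bp per Mb for WT, 81.2 and 83.7 for Npm1c, 178 and 152 for Flt3-ITD and 202 and 224 for DM. Erythroid markers had 218 to 312 bp per Mb outside DM and 88.4 and 64.2 for DM. Platelet markers had 151 and 157 bp per Mb for WT, 122 and 117 for Npm1c, 261 and 225 for Flt3-ITD and 103 and 93.3 for DM. The sums of neutrophil, endothelial and T cell markers overlapped between libraries with and without the Flt3-ITD allele. The summed HSPC markers were lower with the allele, at 851 and 852 bp per Mb for Flt3-ITD and 754 and 752 for DM, against 1114 and 1045 for WT and 1186 and 1237 for Npm1c. All of these sums are per Mb covered, and the lists covered 24.2 to 33.9 Mb with the Flt3-ITD allele and 39.6 to 50.2 Mb without it. Unscaled sums were not compared. Of all single genes, 32.5% reached the smallest exact permutation p for this allele in scaled values. The part of these cell types in the Nr4a1, Klf2 and Egr3 values was not tested.

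The remaining Klf and Egr genes, Klf1, Klf3, Klf4, Klf5, Klf7 to Klf13, Klf15, Klf16 and Egr4, were split between the directions. Of 41 tested regions, limma called 11 wider (25.7% of all regions) and 12 narrower (21.2%) for the Flt3-ITD allele with centring, and 3 wider and 19 narrower without it. In Flt3-ITD against WT, 31 of their 150 regions (20.7%, against 16.2% of all regions) were lost. Klf10 had 3 of 5 regions wider and Klf1, the erythroid factor, its 1 tested region narrower. Among 14 upstream regulators and corepressors, such as Srf, Elk1, Creb1 and Nab2, 12 of 39 tested regions were wider (25.7% of all regions) and 7 narrower (21.2%) with the allele, and 3 and 13 without centring.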

How the data were processed

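Per the submitters' processing notes, reads were aligned with Bowtie2 to mm10 and peaks called with MACS2; versions, thresholds, duplicate removal and the Tn5 shift are not given in the sources used here. Each deposited list belongs to 1 library and holds peak positions only (chromosome, start and end), so there is no score, height or count of reads. The 2 neutrophil samples were not analysed here.

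Peaks on chromosomes 1 to 19 and X were merged and assigned to 21627 protein-coding RefSeq genes (GRCm38.p6), which covered 94.8% of regions; where genes overlap, the shortest one holding the midpoint was used, except that 1 region inside Nr4a2 lies in a shorter gene and was kept with Nr4a2. The gene table gives no exons, so exon, intron and UTR are not stated. Calls were compared by Fisher exact tests and counts, widths by limma, and scaled gene values by exact permutation over 70 relabellings. The tests were checked on simulated data. Python 3.11.15, numpy 2.4.6, pandas 2.3.3, SciPy 1.17.1, R 4.3.3 and limma 3.58.1 were used. The alternatives were other merging, list lengths, gene distances, scalings, filters, the replicate block and leaving out each library; a limma prior with a trend was chosen after seeing the data.

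One list of cell type markers is not reported here. The members, gene lists and markers were chosen with earlier results of these data known. Regions were named where they hold or lie nearest a gene's start, were gained or lost (up to 5 per gene, otherwise the 3 widest per direction), or passed the width test; other genes were the 3 most like Nr4a1 and Klf6 and up to 4 per list and direction. A few further regions that passed no such rule are given to account for a gene, and were chosen after their values were seen.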

Additional observations from a re-analysis of the deposited data

Results flagged for a closer look

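In 4 member regions the effect of 1 allele on width differed with the other allele, by the interaction term of limma with an adjusted p under 0.05 over 26169 regions. A negative term means that DM was narrower than the sum of the single mutant effects. The Nr4a2 start region chr2:57122550-57125023 had a term of -0.80 ± 0.18 (SE, log2 scale, adjusted p = 0.0297 by limma), being wider in Npm1c and not in DM. The Klf6 region chr13:5844716-5846387 had -0.90 ± 0.23 (adjusted p = 0.0471 by limma). The Egr1 region chr18:34859302-34863165 had -0.74 ± 0.18 (adjusted p = 0.0402 by limma). The Nr4a1 region chr15:101252547-101253077 had 0.65 ± 0.15 (adjusted p = 0.0367 by limma), being widest in DM. Without centring, all 4 kept their sign and none had an adjusted p under 0.05 (0.0538 to 0.255). No library stood apart from the others of its allele group in the 36 groups of 4 checked, where chance flags about 1 in 20.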

How the results depend on the processing

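List length and single libraries set the counts of gained and lost members, and reads per library are unknown. With lists of equal length, the Flt3-ITD allele had 3 members called only with it and 0 only without it, DM against WT 9 gained and 3 lost, Flt3-ITD against WT 5 and 1, and Npm1c against WT 1 lost. With genes within 50 kb, DM against Flt3-ITD had 5 of 67 members gained, while the count over all regions stayed at 11009. Leaving out each library in turn, gains ranged from 2 to 6 for Npm1c and for Flt3-ITD against WT, 5 to 13 for DM against WT (13 without WT replicate 1), 8 to 16 for DM against Npm1c and 8 to 17 for DM against Flt3-ITD (both highest without DM replicate 1). Losses ranged from 3 to 10, 7 to 17 and 8 to 14 for Npm1c, Flt3-ITD and DM against WT (all highest without WT replicate 2), 9 to 12 for DM against Npm1c and 2 to 5 for DM against Flt3-ITD. Calls only with the Flt3-ITD allele ranged from 1 to 2, and only without it from 3 to 5.

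Of 602 recomputed width calls of single regions, 433 kept direction and side of the threshold, 168 no longer passed it, and 1 reversed, the Egr1 region chr18:34854372-34856991 in Flt3-ITD against WT, at -0.03 without centring. The Ier2 covered length for the Flt3-ITD allele reversed to -1236 bp unscaled. Changed-width counts became 4 for DM against WT, 3 for Flt3-ITD against WT, 0 for the Npm1c allele and 0 for the interaction without centring; 1 for the Npm1c allele and 0 for the interaction after quantile normalization; 2 for DM against Flt3-ITD, 1 for Flt3-ITD against WT, 1 for Npm1c against WT, 1 for the Npm1c allele and 0 for the interaction with regions called in at least 4 libraries; and 5 for Npm1c against WT with the trended prior, chosen after seeing the data. Leaving out each library, they ranged from 0 to 3 for Npm1c against WT, 0 to 4 for Flt3-ITD against WT (0 without WT replicate 2 or Flt3-ITD replicate 1), 4 to 8 for DM against WT, 8 to 12 for DM against Npm1c, 0 to 4 for DM against Flt3-ITD, 7 to 11 for the Flt3-ITD allele, 0 to 3 for the Npm1c allele and 0 to 4 for the interaction.

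Libraries share only a replicate number, since same-numbered deviations correlated at -0.081 to 0.133. With the replicate block the changed-width counts were 4 for Npm1c, 4 for Flt3-ITD and 8 for DM against WT, 10 for DM against Npm1c, 1 for DM against Flt3-ITD, 11 for the Flt3-ITD allele, 3 for the Npm1c allele and 3 for the interaction, and the covered length of single genes could reach an exact permutation p of 0.0556.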
